A study of Arabidopsis thaliana with 7 samples.

Results

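Genes of the early phenylpropanoid and flavonol pathway were followed in Arabidopsis thaliana seedlings of a double mutant in the GOLDEN2-LIKE transcription factor genes GLK1 and GLK2. The set holds 10 of the 27655 genes in the deposited table: the enzyme genes PAL1, C4H, 4CL3, CHS, CHI, F3H, F3'H and FLS1, and the regulator genes MYB12 and MYB111. It was chosen by gene identity, with earlier results of these data known. Counts of called members therefore describe the set and are not an independent test of it. RNA sequencing libraries came from 4 samples of the glk1 glk2 double mutant and 3 samples of wild type (WT). Both genotypes shared the Col-0 background. Seedlings had grown for 12 days on 1/2 MS medium under long days at 16 °C and were taken at ZT4, 4 h after lights on. The alleles are not named in the labels, and the labels do not tell whether samples of 1 genotype are separate plantings. The p-values therefore refer only to the variation among these libraries, part of which may be technical.

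Phenylalanine enters the pathway through PAL, which removes its amino group. C4H hydroxylates the resulting cinnamate, and 4CL joins the product to coenzyme A. CHS condenses that ester with malonyl-CoA into a chalcone, which CHI closes to a flavanone. F3H and F3'H hydroxylate the rings, and FLS turns dihydroflavonols into flavonols such as kaempferol and quercetin, which screen ultraviolet light. The R2R3-MYB factors MYB12 and MYB111, with their relative MYB11, activate flavonol genes. GLK1 and GLK2 are known for promoting chloroplast development and photosynthesis genes.

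Values are TPM (a level per transcript length with a fixed sum of 1000000 per library). The read depth behind them is unknown. Transcripts of both targeted genes were lower in every mutant library: GLK1 had 49.7 to 56.0 TPM in glk1 glk2 and 183 to 203 TPM in WT, and GLK2 had 46.0 to 54.4 TPM in glk1 glk2 and 155 to 161 TPM in WT. The median log2 fold change (glk1 glk2 minus WT) of all 19127 tested genes was 0.33 in TPM and 0.011 after scaling by trimmed mean of M values (TMM), which centres most genes near 0. A gene is therefore said to rise or fall only where limma gave an adjusted p under 0.05 in the same direction with both scalings. Of the cell type markers, 3 epidermis genes summed to 604 to 707 TPM in glk1 glk2 and 526 to 571 TPM in WT, and 3 phloem genes to 145 to 273 TPM in glk1 glk2 and 168 to 174 TPM in WT. Most of the epidermis sum was PDF1 (329 to 481 TPM in glk1 glk2 and 350 to 387 TPM in WT). PDF1 overlapped between the groups and had a log2 fold change of -0.29 after TMM scaling. ATML1 and KCS10 lay above WT in every mutant library in TPM, where 62.8% of all tested genes did. After TMM scaling their log2 fold changes were 0.097 and 0.12, and no epidermis marker was called with both scalings. Root markers, 5 genes, summed to 1746 to 2949 TPM in glk1 glk2 and 1645 to 2070 TPM in WT, nearly all of it PYK10 (1713 to 2887 TPM in glk1 glk2 and 1631 to 2044 TPM in WT). Of the other root markers, COBL9 had 12.6 to 20.6 TPM in glk1 glk2 and 4.61 to 11.0 TPM in WT (limma adjusted p = 0.0178 in TPM and 0.246 after TMM scaling), and SMB had 0.93 to 1.97 TPM in glk1 glk2 and 0.56 to 0.88 TPM in WT (limma adjusted p = 0.0324 in TPM and 0.3 after TMM scaling). Both were thus above WT in every mutant library in TPM, where 62.8% of all tested genes were. The root markers EXPA7, BRN1 and PYK10 overlapped between the groups. The part of root tissue in the members' differences was not tested. The 3 flower organ genes summed to under 1 TPM in each library. The 3 seed storage genes summed to 309 TPM in mutant replicate 2 and 102 TPM in WT replicate 2, against 0.85 to 18.7 TPM in the other mutant libraries and 0.80 to 15.7 TPM in the other WT libraries. In bulk seedlings a different number of cells of a type and a different amount of RNA per cell cannot be told apart.

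All 10 transcripts were more abundant in each mutant library than in any WT library. Those that rose were PAL1, 4CL3, CHS, CHI, F3H and FLS1, so that 6 of 10 were called higher with both scalings where 3.20% of all tested genes were. In TPM alone 10 of 10 were called higher, where 63.0% of all tested genes were, and after TMM scaling alone 6 of 10, where 3.20% were. The count without overlap between groups was 10 of 10 with either scaling, against a background of 62.8% higher in TPM and 12.1% higher after TMM scaling. Limma called 0 of 10 lower, where 2.53% of all tested genes were called lower with both scalings, 2.56% in TPM alone and 4.96% after TMM scaling alone. Likewise 0 of 10 lay below WT without overlap, against 2.54% of all tested genes in TPM and 11.7% after TMM scaling. At an unadjusted limma p under 0.05, 10 of 10 were higher in TPM, where 67.3% of all tested genes were, and 9 of 10 with TMM scaling, where 12.2% were. At that threshold 0 of 10 were lower, against 2.74% of all tested genes in TPM and 12.3% with TMM scaling. The median log2 fold change of the 10 was 0.95 in TPM and 0.66 after TMM scaling, beside the medians of all tested genes given above.

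**Figure D1:**
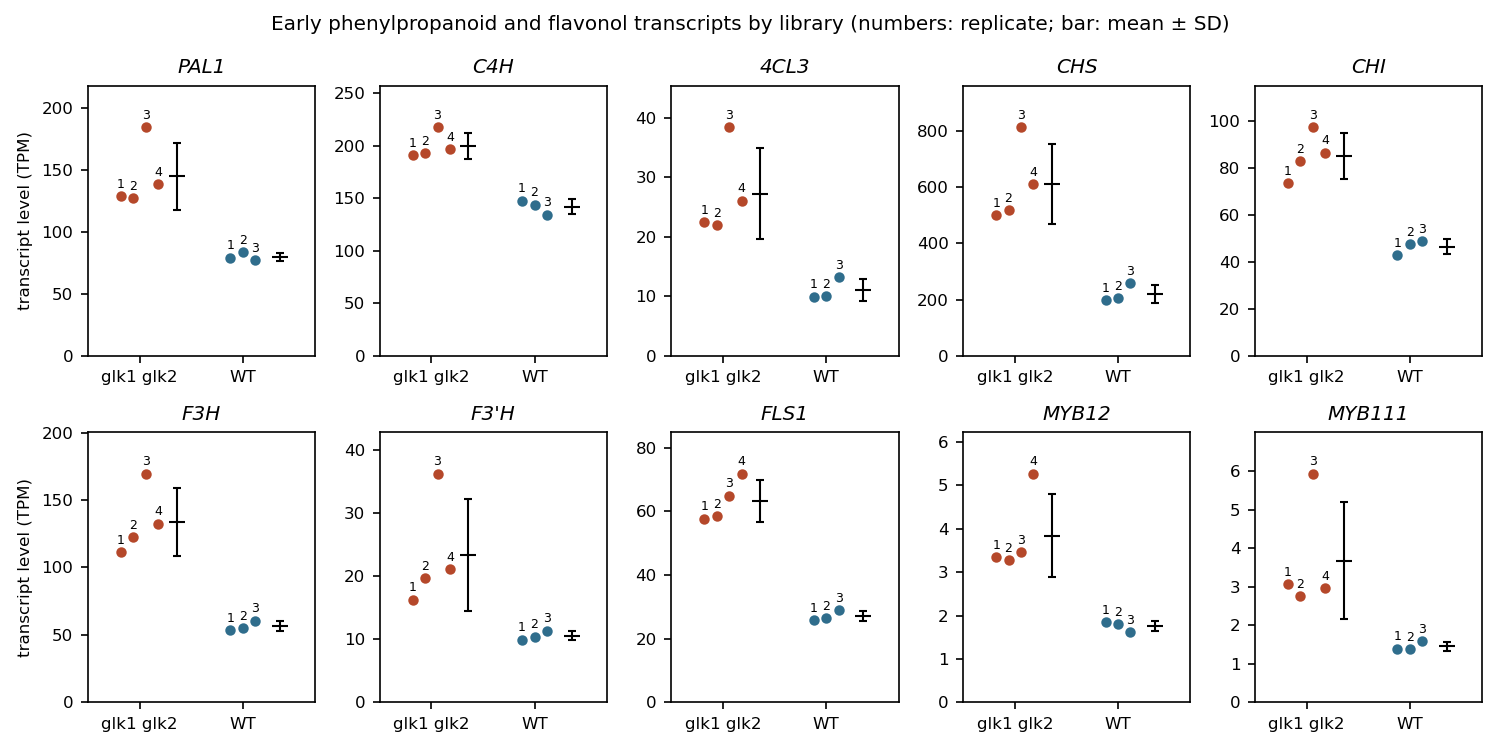
TPM of each of the 10 transcripts in the 4 glk1 glk2 libraries (left, red-brown) and the 3 WT libraries (right, blue), with replicate numbers beside the points and the group mean ± SD as a black bar; each axis starts at 0. In every panel the lowest mutant library lies above the highest WT library, and mutant replicate 3 stands high in most of them, with 812 TPM of CHS.

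Of the 3 general phenylpropanoid genes, PAL1 and 4CL3 rose. PAL1 (AT2G37040), which encodes phenylalanine ammonia-lyase, had 129, 127, 184 and 139 TPM in the glk1 glk2 libraries, and 79.3, 83.5 and 77.1 TPM in the WT libraries. The groups were well apart, and mutant replicate 3 was the highest. PAL1 rose, by 0.83 ± 0.12 on the log2 scale in TPM (SE, limma adjusted p = 8.295e-04) and by 0.47 ± 0.11 after TMM scaling (SE, limma adjusted p = 0.0283). C4H (AT2G30490), which encodes cinnamate 4-hydroxylase, had 191, 193, 218 and 197 TPM in glk1 glk2 and 148, 144 and 135 TPM in WT. Its mutant libraries lay close together and above all WT libraries, yet the difference in TPM was near the shift common to most genes. The log2 fold change of C4H was 0.49 in TPM (limma adjusted p = 6.445e-04) and 0.13 after TMM scaling, with a 95% confidence interval of -0.0081 to 0.26 (limma adjusted p = 0.231). The third gene, 4CL3 (AT1G65060), encodes the 4-coumarate:CoA ligase associated with flavonoid synthesis. It had 22.45, 22.0, 38.4 and 26.05 TPM in glk1 glk2 and 9.92, 10 and 13.2 TPM in WT, with no overlap and with replicate 3 the highest library of each group. 4CL3 rose, by 1.20 ± 0.19 on the log2 scale in TPM (SE) and by 0.86 ± 0.17 after TMM scaling (SE, limma adjusted p = 0.0186).

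The flavonoid steps held the strongest change. CHS (AT5G13930), the chalcone synthase gene also known as TT4, had 500.4, 518, 812 and 609.9 TPM in glk1 glk2 and 197, 205 and 258 TPM in WT. Its mean was 610.1 ± 143 TPM in glk1 glk2 (SD, n = 4) and 220.1 ± 32.8 TPM in WT (SD, n = 3), a 2.77-fold difference of the means. The lowest mutant library was far above the highest WT library. CHS rose by 1.45 ± 0.17 on the log2 scale in TPM (SE, limma adjusted p = 3.959e-04) and by 1.09 ± 0.16 after TMM scaling (SE, limma adjusted p = 0.0038), the largest of the 10 and position 29 of 19127 tested genes. CHI (AT3G55120, TT5), which encodes chalcone isomerase, had 73.7, 82.9, 97.5 and 86.6 TPM in glk1 glk2 and 43.0, 47.6 and 49.05 TPM in WT. CHI rose by 0.85 on the log2 scale in TPM and by 0.50 ± 0.09 after TMM scaling (SE, limma adjusted p = 0.0106). F3H (AT3G51240), for flavanone 3-hydroxylase, had 111, 123, 169.5 and 132 TPM in glk1 glk2 and 53.6, 55.15 and 60.7 TPM in WT. The mutant libraries all lay well above the WT libraries, and F3H rose by 1.22 on the log2 scale in TPM and by 0.86 ± 0.12 after TMM scaling (SE, limma adjusted p = 0.0027).

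The gene of the B-ring hydroxylase F3'H (AT5G07990, TT7) had 16.3, 19.7, 36.3 and 21.2 TPM in glk1 glk2 and 9.93, 10.4 and 11.4 TPM in WT. Its mutant libraries spread over 2.13-fold after TMM scaling, the widest spread of the 10 within the mutant. The log2 fold change of F3'H was 1.01 in TPM (limma adjusted p = 0.0041) and 0.67 after TMM scaling, with a 95% confidence interval of 0.20 to 1.15 that did not include 0 but an adjusted p over all genes of 0.0861 (limma). FLS1 (AT5G08640), the flavonol synthase gene that acts in flavonol formation, had 57.7, 58.5, 64.9 and 71.8 TPM in glk1 glk2 and 25.9, 26.4 and 29.0 TPM in WT. Both groups were tight and far apart. FLS1 rose by 1.19 ± 0.09 on the log2 scale in TPM (SE) and by 0.84 ± 0.08 after TMM scaling (SE, limma adjusted p = 4.392e-04), the smallest adjusted p of the 10 genes.

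**Figure D2:**
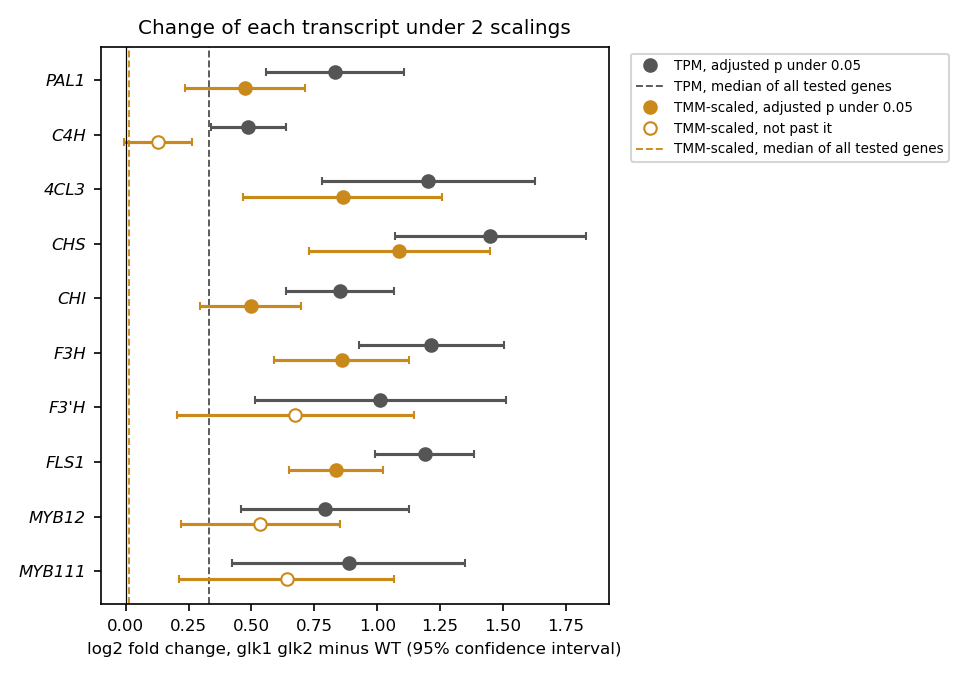
Log2 fold change (glk1 glk2 minus WT) of each transcript in TPM (grey) and after TMM scaling (ochre), with 95% confidence intervals; filled points have a limma adjusted p under 0.05 and dashed lines mark the median of all tested genes. All grey points are filled, while C4H, F3'H, MYB12 and MYB111 are open after TMM scaling, C4H at 0.13.

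Calls of PAL1, 4CL3 and CHI were lost when some single WT libraries were left out. After TMM scaling PAL1 was not called when any 1 WT library was left out (limma adjusted p = 0.0917 to 0.103), 4CL3 not without WT replicate 1 (0.0841) or 2 (0.0962), and CHI not without WT replicate 1 (0.0553) or 2 (0.0526). In those fits the log2 fold change after TMM scaling was 0.46 to 0.50 for PAL1, 0.80 for 4CL3 and 0.44 to 0.51 for CHI. Calls over all tested genes fell too, from 613 higher to 197, 165 and 328 without WT replicate 1, 2 and 3. CHS, F3H and FLS1 kept their calls without any single library, with a highest limma adjusted p of 0.029, 0.0228 and 0.0054. The exact two-sided permutation p was 0.0286, the lowest value possible with 35 divisions, for each of the 10 in TPM and for 8 of them after TMM scaling, where C4H and F3'H had 0.0571.

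The 2 regulator genes were expressed at a low level. MYB12 (AT2G47460) had 3.34, 3.28, 3.46 and 5.27 TPM in glk1 glk2 and 1.85, 1.81 and 1.62 TPM in WT. The mutant libraries lay above the WT libraries, with replicate 4 the highest. The log2 fold change of MYB12 on the log2(TPM + 1) scale, which understates changes of low genes, was 0.79 in TPM (limma adjusted p = 0.0021) and 0.54 after TMM scaling (95% confidence interval 0.22 to 0.85, limma adjusted p = 0.051). MYB111 (AT5G49330) had 3.06, 2.76, 5.93 and 2.96 TPM in glk1 glk2 and 1.39, 1.38 and 1.58 TPM in WT. Here replicate 3, not replicate 4, was the high mutant library. The log2 fold change of MYB111 was 0.89 in TPM (limma adjusted p = 0.0053) and 0.64 after TMM scaling (95% confidence interval 0.21 to 1.07, limma adjusted p = 0.0757). MYB12 missed the threshold by little: it was called without mutant replicate 3 (limma adjusted p = 0.0446) or 4 (0.0456), and MYB111 and F3'H were called without mutant replicate 3 (0.0303 and 0.0304). Without mutant replicate 3 the count of members that rose was therefore 9 of 10, all but C4H, where 4.11% of all tested genes were called higher. The third factor of this subgroup, MYB11, had 0.36 to 0.76 TPM in glk1 glk2 and 0.10 to 0.39 TPM in WT, under the filter on low values, and was not tested.

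The order of levels was shared by both genotypes. From high to low, the group means ran CHS, C4H, PAL1, F3H, CHI, FLS1, 4CL3, F3'H, MYB12 and MYB111 in glk1 glk2 and likewise in WT. Neighbours whose libraries overlapped were PAL1 and F3H, 4CL3 and F3'H, and MYB12 and MYB111 in glk1 glk2, and only 4CL3 and F3'H in WT. The 5 flavonoid enzyme transcripts together held 759 to 1180 TPM in glk1 glk2 and 330 to 408 TPM in WT.

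The promoters of 6 members are shown. They are the 4 with the largest change after TMM scaling (CHS, 4CL3, F3H and FLS1), the regulator gene MYB12, and C4H, which had the smallest difference. Those of PAL1, CHI, F3'H and MYB111 are not shown. The F3H window is also covered in part by another annotated gene. The windows are the 250 bases before the annotated gene start in RefSeq TAIR10.1, written 5′ to 3′ along the gene. Capitals mark the G-box CACGTG, bound by bZIP factors such as HY5, and the AC element ACCNANC, a kind of site bound by R2R3-MYB factors, on either strand.
CHS, chr5:4488226-4488475, plus strand: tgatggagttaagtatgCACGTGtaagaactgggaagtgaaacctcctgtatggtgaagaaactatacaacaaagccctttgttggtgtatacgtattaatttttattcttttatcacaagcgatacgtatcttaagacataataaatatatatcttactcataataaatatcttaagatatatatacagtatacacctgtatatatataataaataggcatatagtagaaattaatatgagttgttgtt
F3H, chr3:19024942-19025191, plus strand: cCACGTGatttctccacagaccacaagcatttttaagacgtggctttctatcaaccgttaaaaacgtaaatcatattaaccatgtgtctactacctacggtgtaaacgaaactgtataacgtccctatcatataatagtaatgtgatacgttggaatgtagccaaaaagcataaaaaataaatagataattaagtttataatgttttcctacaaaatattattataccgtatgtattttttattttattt
4CL3, chr1:24171636-24171885, minus strand: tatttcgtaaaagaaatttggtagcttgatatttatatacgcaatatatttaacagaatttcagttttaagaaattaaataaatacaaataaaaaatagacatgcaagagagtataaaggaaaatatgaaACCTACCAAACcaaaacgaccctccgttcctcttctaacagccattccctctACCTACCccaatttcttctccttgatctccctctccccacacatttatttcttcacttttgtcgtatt
FLS1, chr5:2803583-2803832, plus strand: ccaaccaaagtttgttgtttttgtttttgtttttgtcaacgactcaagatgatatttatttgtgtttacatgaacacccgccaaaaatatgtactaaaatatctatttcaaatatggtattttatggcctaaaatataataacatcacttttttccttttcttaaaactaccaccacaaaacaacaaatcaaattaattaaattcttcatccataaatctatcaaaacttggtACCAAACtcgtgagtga
MYB12, chr2:19476076-19476325, plus strand: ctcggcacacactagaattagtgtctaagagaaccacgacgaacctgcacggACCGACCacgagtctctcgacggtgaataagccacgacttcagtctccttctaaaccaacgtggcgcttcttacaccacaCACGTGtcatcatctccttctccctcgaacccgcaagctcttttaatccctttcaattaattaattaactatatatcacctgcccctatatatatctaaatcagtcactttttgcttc
C4H, chr2:12996013-12996262, minus strand: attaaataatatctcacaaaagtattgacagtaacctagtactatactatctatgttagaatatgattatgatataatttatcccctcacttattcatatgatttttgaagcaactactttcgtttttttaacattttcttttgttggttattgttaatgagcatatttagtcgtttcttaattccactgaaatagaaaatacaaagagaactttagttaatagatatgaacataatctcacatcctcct

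Within these windows the G-box was found in 3 of the 10 members, CHS, F3H and MYB12, where 6.49% of 27443 promoters of nuclear protein-coding genes held one. Its shorter core ACGT was found in 5 of 10, where 44.1% of all promoters held one. An AC element was found in 4 of 10, 4CL3, F3'H, FLS1 and MYB12, where 27.8% of all promoters held one. The 4CL3 window held 3 AC elements, 2 of which overlap, and the MYB12 window was the only one of the 10 with both a G-box and an AC element. PAL1 and CHI, which rose, had neither in this window, and nor did MYB111 and C4H. The hexamers GATTCT and CCAATC, which have been linked to GLK binding or to promoters of GLK targets, occurred in 0 and 1 of the 10 windows, the match in F3'H where it overlaps an AC element, and in 15.9% and 10.2% of all promoters. With 50 bases after the start added, the counts were 4 of 10 for the G-box (7.68% of all promoters), 7 of 10 for the ACGT core (49.9%), 7 of 10 for the AC element (32.6%), 0 of 10 for GATTCT (19.3%) and 2 of 10 for CCAATC (12.3%). These matches describe letters in the sequence and are not evidence of binding.

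The exon sequence of the members is distinctive. In 9 of the 10 genes every stretch of 50 exon bases occurs once in the genome, and in PAL1 98.9% of 2833 stretches do. F3H (chromosome 3, positions 19025192 to 19026872, plus strand) is overlapped over 1588 of its 1681 bases by the antisense long noncoding RNA gene AT3G51238. The strand setting of the counting is not given in the sources used here, so reads of F3H and of AT3G51238 cannot be told apart. CHS shares only 2 bases with its antisense neighbour AT5G13940, which had at most 0.11 TPM in any library.

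Within a genotype several members were high in the same library. Mutant replicate 3 was the highest mutant library after TMM scaling for 8 of the 10 transcripts, by 0.61 above the group mean on the log2 scale for F3'H, 0.55 for MYB111, 0.46 for 4CL3 and 0.38 for CHS. FLS1 and MYB12 were the exceptions, both highest in mutant replicate 4, by 0.17 and 0.37. Among WT libraries replicate 3 was the highest for 7 transcripts, with 4CL3 (0.27) and CHS (0.26) foremost and F3'H and MYB111 at only 0.12 and 0.09. C4H stayed within 0.07 of its group mean in each library.

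**Figure D3:**
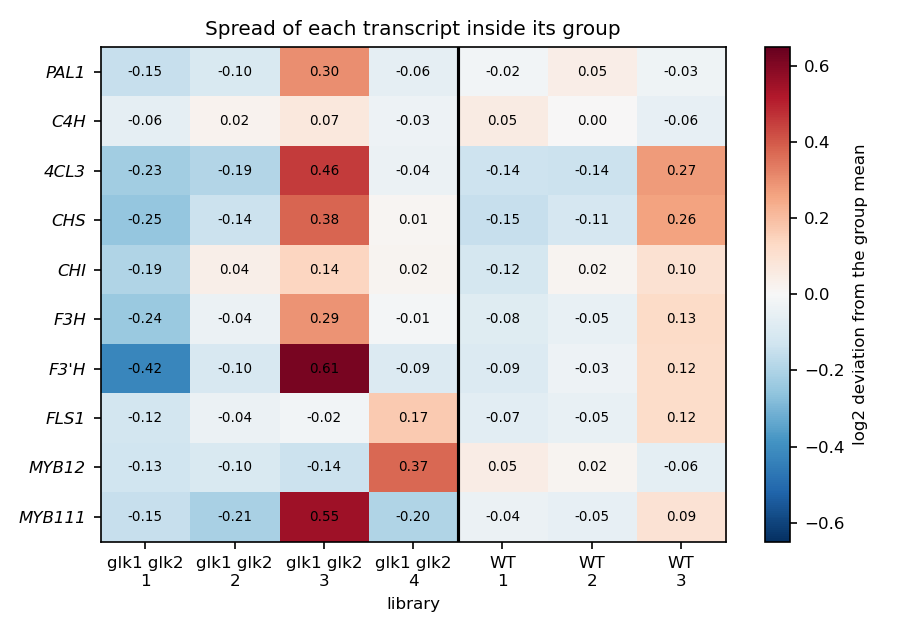
Deviation of each library from its group mean, as a log2 difference of TMM-scaled values, for the 4 glk1 glk2 libraries (left of the line) and the 3 WT libraries (right); red is above and blue below the mean. Mutant replicate 3 is red in the rows of PAL1, 4CL3, CHS, F3H, F3'H and MYB111, and MYB12 is red in mutant replicate 4 (0.37).

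Other transcripts shared this spread. Across all tested genes, the likeness to CHS was taken as the Pearson correlation of group-centred log2 values over the 7 libraries, whose median over all genes was -0.012 and which exceeded 0.9 in 0.847% of genes. It describes few libraries, which all genes share. Among the members it was 0.99 for 4CL3 (position 5 of 19126 genes), 0.96 for F3H, 0.90 for F3'H, 0.84 for CHI, 0.83 for MYB111, 0.75 for PAL1, 0.52 for FLS1, 0.19 for C4H and -0.11 for MYB12. DFR, the first gene of the anthocyanin branch, reached 0.97. The 5 genes outside the pathway lists with the highest values were AT4G24200, RLP23, CHR11, AT3G55760 and ABCI12, at 0.98 to 1.00. The marker sums differed between libraries too. The summed phloem markers were highest in mutant replicate 3 (273 TPM, against 145 to 190 TPM in the other mutant libraries). Among WT libraries they were lowest in replicate 3 (168 TPM). The summed epidermis markers were highest in replicate 3 of both genotypes (707 TPM in glk1 glk2 and 571 TPM in WT), most of it PDF1 (481 and 387 TPM). In mutant replicate 3 KCS10 was the lowest of the mutant libraries (180 TPM, against 202 to 223 TPM). ATML1 was not the highest there (45.6 TPM, against 41.9 to 51.4 TPM). In WT replicate 3 each epidermis marker was the highest of the WT libraries. The likeness to CHS was 0.30 to 0.54 for the phloem markers, -0.48 to 0.68 for the epidermis markers and -0.61 to -0.03 for the root markers. The summed root markers were highest in mutant replicate 4 (2949 TPM, against 1746 to 2457 TPM). The root hair genes EXPA7 and COBL9 were also highest in mutant replicate 4, at 36.4 and 20.6 TPM, and lowest among all libraries in WT replicate 3, at 8.20 and 4.61 TPM, the WT library with the lowest MYB12. The part of these tissues in the spread of the members was not tested.

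Ratios between transcripts of 1 library do not depend on how the library is scaled. CHS to C4H, the first flavonoid step over a general phenylpropanoid step, stood at 2.62, 2.68, 3.73 and 3.10 in glk1 glk2 and 1.34, 1.42 and 1.92 in WT. The groups did not overlap, and the difference was 0.96 on the log2 scale (exact two-sided permutation p = 0.0286, the smallest possible, and 0.0857 adjusted over 3 ratios, which misses the threshold). FLS1 to DFR, the flavonol over the anthocyanin branch, was 1.15, 0.90, 0.38 and 1.04 in glk1 glk2 and 0.76, 0.64 and 0.47 in WT. Mutant replicate 3 had the lowest of all 7 ratios, the groups overlapped, and the difference of 0.39 was not called (exact permutation p = 0.429, adjusted 0.643). FLS1 to F3'H was 3.54, 2.96, 1.79 and 3.39 in glk1 glk2 and 2.61, 2.53 and 2.55 in WT, a difference of 0.14 (exact permutation p = 0.657, adjusted 0.657). WT libraries were nearly equal in this ratio, while the mutant libraries lay on both sides of them.

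**Figure D4:**
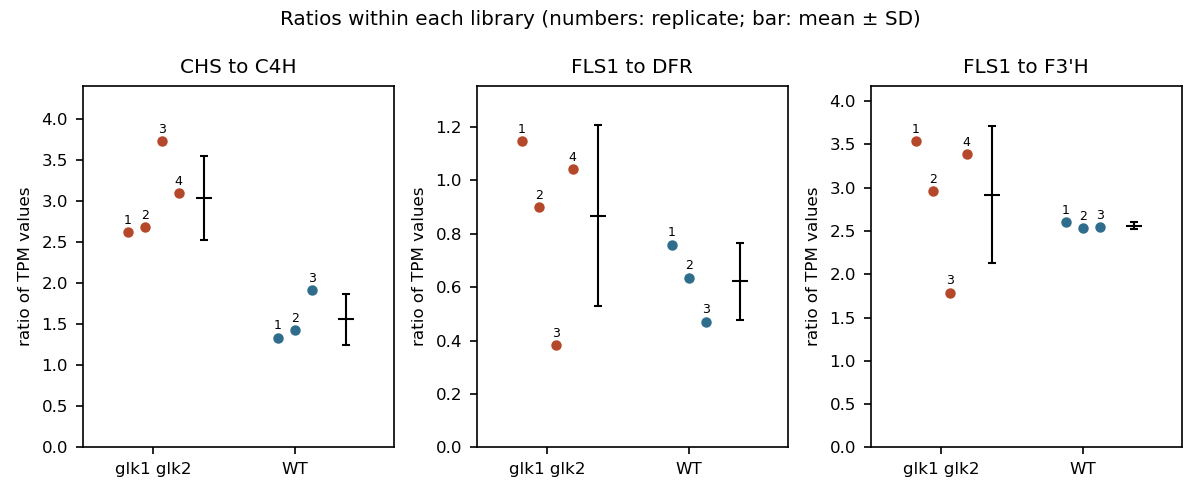
Ratios of TPM within each library for CHS to C4H, FLS1 to DFR and FLS1 to F3'H in glk1 glk2 (left, red-brown) and WT (right, blue), with replicate numbers and the mean ± SD as a black bar. The CHS to C4H ratio was above 2.6 in each mutant library and below 2 in each WT library, whereas the other ratios overlap between groups and are lowest in mutant replicate 3.

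The other genes of the pathway were read from lists, by counts and medians. Of 11 tested paralogs and partners of the members 1 rose and 0 fell, and their median log2 fold change was 0.40 in TPM and 0.087 after TMM scaling. In TPM alone 7 were called higher (63.0% of all tested genes) and 0 lower (2.56%). With TMM alone 1 was called higher (3.20%) and 1 lower (4.96%). The lower gene, PAL4, had 10.5 to 11.9 TPM in glk1 glk2 and 10.7 to 13.4 TPM in WT (-0.38 after TMM scaling, limma adjusted p = 0.0265, and 0.65 in TPM). It was also called lower with quantile normalization (limma adjusted p = 0.0218). The gene that rose was 4CL1, a ligase associated with lignin precursors, with 121 to 152 TPM in glk1 glk2 and 82.3 to 91.9 TPM in WT (log2 fold change 0.29 after TMM scaling, limma adjusted p = 0.0361). Its call was lost without any 1 of the 3 WT libraries and without mutant replicate 1 or 4 (limma adjusted p = 0.0705 to 0.125). PAL2 had 107 to 140 TPM in glk1 glk2 and 77.7 to 83.0 TPM in WT (0.29, limma adjusted p = 0.0578), and was called without mutant replicate 2 (0.0213) and with array weights (0.0025). 4CL2 had 21.3 to 30.9 TPM in glk1 glk2 and 18.1 to 21.4 TPM in WT (0.056, adjusted p = 0.769, limma). CHIL, a noncatalytic relative of CHI that aids CHS, had 71.9 to 122 TPM in glk1 glk2 and 51.4 to 59.4 TPM in WT (0.30, limma adjusted p = 0.251).

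Flavonol decoration, the attachment of sugars or methyl groups to the flavonol, held 3 genes that rose among 5 tested and 0 that fell. In TPM alone 5 were called higher (63.0% of all tested genes), and with TMM alone 3 (3.20%). The median log2 fold change of the list was 0.87 in TPM and 0.52 after TMM scaling. RHM1, which makes UDP-rhamnose, had 126, 122, 167 and 136 TPM in glk1 glk2 and 63.9, 70.4 and 68.7 TPM in WT (log2 fold change 0.65 ± 0.09 after TMM scaling, SE, limma adjusted p = 0.003). Its groups were clearly apart and its call held without any single library (highest limma adjusted p 0.0206). UGT89C1, a flavonol rhamnosyltransferase gene, had 82.5 to 118 TPM in glk1 glk2 and 45.0 to 50.4 TPM in WT (0.56, limma adjusted p = 0.0153). UGT78D2, a flavonoid glucosyltransferase gene, had 50.5 to 78.1 TPM in glk1 glk2 and 29.4 to 34.7 TPM in WT (0.52, limma adjusted p = 0.0416). UGT89C1 was not called without WT replicate 1 (0.0744) or 2 (0.0704), and UGT78D2 was not called without any 1 WT library, mutant replicate 2 or mutant replicate 4 (0.052 to 0.15).

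In the anthocyanin branch, which leaves the flavonol route at the dihydroflavonols, limma called 0 of 7 tested genes with both scalings. It called 4 higher in TPM and 0 after TMM scaling, against 63.0% and 3.20% of all tested genes, and at an unadjusted p under 0.05 it had 5 and 2 higher and 0 lower, against 67.3% and 12.2% higher. The median log2 fold change was 0.87 in TPM and 0.52 after TMM scaling. DFR had 50.3, 65.0, 170 and 68.9 TPM in glk1 glk2 and 34.1, 41.6 and 61.6 TPM in WT, so that the groups overlapped (0.46 after TMM scaling, 95% confidence interval -0.37 to 1.29, limma adjusted p = 0.488). With 1 library left out the difference of DFR ranged from 0.11, without mutant replicate 3, to 0.70, without WT replicate 3, and it was 0.27 without WT replicate 1. 3AT1, an anthocyanin acyltransferase gene, had 14.3, 16.2, 43.1 and 13.9 TPM in glk1 glk2 and 5.22, 7.09 and 10.5 TPM in WT (0.96, limma adjusted p = 0.15). In both of these genes mutant replicate 3 was far above the other mutant libraries. With array weights 3AT1 was called (0.76, limma adjusted p = 0.031), and with any 1 library left out it was not (0.107 to 0.374). In the branch to lignin precursors and sinapate esters limma called 0 of 12 tested genes with both scalings. In TPM alone 10 were called higher, where 63.0% of all tested genes were, and with TMM alone 0, where 3.20% were. An unadjusted p under 0.05 was reached by 10 higher genes in TPM (67.3% of all tested genes). With TMM 3 higher genes (12.2%) and 1 lower gene (12.3%) reached it. The list had medians of 0.40 in TPM and 0.042 after TMM scaling. CCOAOMT1, a methyltransferase gene of lignin synthesis, had 574 to 631 TPM in glk1 glk2 and 319 to 416 TPM in WT (0.34, limma adjusted p = 0.051). CCOAOMT1 was called without WT replicate 1 (0.0385), with a filter on the mean of 5 TPM (0.0447), with quantile normalization (0.0159) and with array weights (0.0071). Without mutant replicate 3 UGT84A2, a glucosyltransferase gene of sinapate named here after its values were seen, was called (limma adjusted p = 0.0153).

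**Figure D5:**
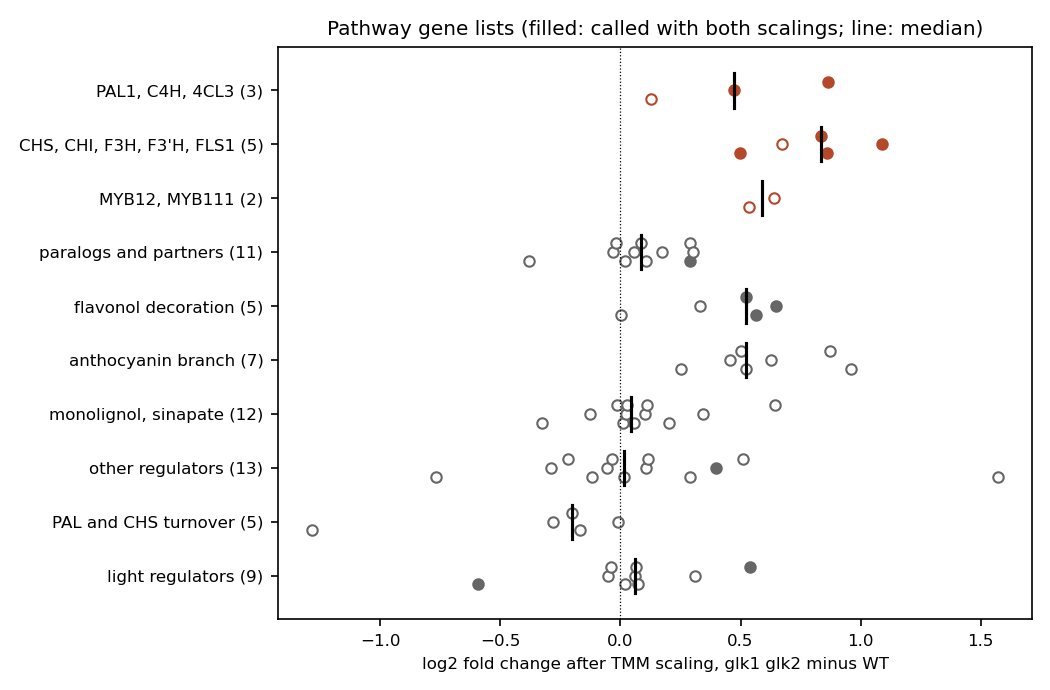
Log2 fold change after TMM scaling (glk1 glk2 minus WT) of every tested gene in the 10 groups of pathway genes, the 10 followed genes in red-brown and the other lists in grey, with the number tested in brackets; filled points were called with both scalings and bars mark medians. The flavonoid enzymes (median 0.84) all lie right of 0, the flavonol decoration and anthocyanin lists have the same median (0.52), and the monolignol list (0.042) and the other regulators (0.015) are centred near it.

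Among 13 other regulators of the pathway 1 rose and 0 fell, and their median was 0.32 in TPM and 0.015 after TMM scaling (log2 fold change). In TPM alone 8 were called higher (63.0% of all tested genes), and with TMM alone 1 (3.20%). MYB4, a repressor of C4H, rose, with 33.0, 30.9, 35.7 and 34.1 TPM in glk1 glk2 and 19.7, 19.8 and 18.9 TPM in WT (0.40 ± 0.05 after TMM scaling, SE, limma adjusted p = 0.0023). Its 2 groups were tight, and the call held without any single library (highest limma adjusted p 0.0207). PAP1 and PAP2, MYB genes of anthocyanin control, were called with both scalings only in some alternatives: PAP1 lower without mutant replicate 3 (limma adjusted p = 0.0046) and PAP2 higher without mutant replicate 4 (0.0418), among those with 1 library left out. PAP2 had 6.16, 8.73, 30.6 and 3.05 TPM in glk1 glk2 and 1.36 to 2.18 TPM in WT. Its log2 fold change after TMM scaling was 1.57, position 8 of 19127 tested genes (limma adjusted p = 0.0188 in TPM and 0.125 after TMM scaling). PAP1 had 2.72 to 10.8 TPM in glk1 glk2 and 6.51 to 7.97 TPM in WT (-0.77 after TMM scaling, limma adjusted p = 0.168). Of 5 Kelch F-box genes whose proteins mark PAL or CHS for breakdown, limma called 0 with both scalings (3.20% of all tested genes higher and 2.53% lower). In TPM alone 1 was called higher, where 63.0% of all tested genes were. With TMM alone 0 were called, against 3.20% higher and 4.96% lower. An unadjusted p under 0.05 was reached by 1 higher gene in TPM (67.3% of all tested genes) and, with TMM, by 1 lower gene (12.3%). Their median was 0.16 in TPM and -0.20 after TMM scaling. KFB01, the one with the smallest p after TMM scaling, had 7.01 to 8.74 TPM in glk1 glk2 and 7 to 8.62 TPM in WT (limma adjusted p = 0.737 in TPM and 0.0909 after TMM scaling). The gene called in TPM was KFB50, with 153 to 210 TPM in glk1 glk2 and 142 to 152 TPM in WT (limma adjusted p = 0.0161 in TPM and 0.968 after TMM scaling).

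Of 9 light-signalling regulators of flavonoid genes 1 rose and 1 fell, with a median of 0.38 in TPM and 0.061 after TMM scaling. In TPM alone 8 were called higher (63.0% of all tested genes) and 1 lower (2.56%). With TMM alone 1 was called higher (3.20%) and 1 lower (4.96%). BBX22, a B-box factor that acts with HY5, rose, with 53.6 to 73.3 TPM in glk1 glk2 and 32.1 to 32.9 TPM in WT (0.54, limma adjusted p = 0.0147). That call was lost without WT replicate 1 (0.0657) or 2 (0.0753). The blue-light receptor gene CRY1 fell, with 83.7 to 93.6 TPM in glk1 glk2 and 104 to 107 TPM in WT (-0.59 after TMM scaling, limma adjusted p = 3.896e-04). HY5, the bZIP factor that activates CHS and MYB12 in light, had 13.7 to 15.5 TPM in glk1 glk2 and 8.13 to 10.1 TPM in WT (0.31 after TMM scaling, limma adjusted p = 0.0921), and was called without mutant replicate 3 (0.0422), where the list had 2 genes higher and 1 lower.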

How the data were processed

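The authors deposited 1 table of TPM values for 27655 genes in 4 libraries of glk1 glk2 and 3 of WT. TopHat2, Cufflinks and the build TAIR10 are named per the submitters' processing notes, and versions, annotation and strand setting are not given there. In 5606 rows the identifiers depart from alphabetical order while WT replicate 1 keeps it. In those rows log2(TPM + 1) of that library correlated across genes with the average of the remaining ones at 0.0546 as deposited and at 0.996 read alphabetically, the reading used here. It concerns CHI and F3H, which as deposited would hold 1.66 and 5.94 TPM in place of 43.0 and 53.6 TPM.

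Genes with at least 1 TPM in at least 3 libraries were kept, 19127 in all, with all 10 members. Differences in log2(TPM + 1) came from limma (version 3.58.1, run in R 4.3.3; linear fit, then eBayes with trend), p-values were two-sided and adjusted by Benjamini-Hochberg over all tested genes, and the fit was repeated on TMM-scaled values (30% and 5% trims). Exact permutation tests used all 35 divisions of the libraries. RefSeq TAIR10.1 matched 27445 identifiers and gave gene models and promoter sequence. The fits were also run on simulated data without a shift common to most genes. That simulation cannot tell how the rule of both scalings works where such a shift exists, as in these data.

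The members and lists were chosen with earlier results of these data known. Named genes were the members, up to 3 called genes of each other list or the one with the smallest p after TMM scaling, a fixed set (PAL2, 4CL1, 4CL2, CHIL, MYB11, DFR, HY5, GLK1, GLK2) and the 5 genes most like CHS outside the lists. Markers given singly and PAL4, KFB50, UGT84A2, UGT75C1, PAP1 and PAP2 were named after their values were seen. Array weights are limma's weights per library. Alternatives changed the pseudocount, filter, scaling, variance model, threshold and libraries; their use on the other lists and named genes was added after seeing the data.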

Additional observations from a re-analysis of the deposited data

Results flagged for a closer look

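Among the values of the 4 glk1 glk2 libraries, 36 sets (the named genes in TPM and the 3 ratios) were examined for 1 library far from the rest, as a gap to its neighbour that exceeds Dixon's 95% critical value as a share of the whole range. For sets independent of each other chance gives about 1 in 20, and 6 were found. The sets share the same 4 libraries and many of their genes vary together, so that rate cannot be set against the count. All but the set of MYB12 were flagged for mutant replicate 3.

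MYB12 was high in mutant replicate 4 (5.27 TPM, against 3.28 to 3.46 TPM in the others). MYB111 was high in mutant replicate 3 (5.93 TPM, against 2.76 to 3.06 TPM). Also high in mutant replicate 3 were DFR (169.9 TPM, against 50.3 to 68.9 TPM), 3AT1 (43.13 TPM, against 13.9 to 16.2 TPM) and UGT89C1 (118.3 TPM, against 82.5 to 88.1 TPM), while HY5 was low there (13.7 TPM, against 15.3 to 15.5 TPM). Without mutant replicate 3 the log2 fold change of MYB111 after TMM scaling was 0.45, against 0.64 with it.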

How the results depend on the processing

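The number of members that rose was 6, and 6 or 7 with a pseudocount of 0.1, with no filter or one on the mean (5 TPM), with quantile normalization, without a variance trend, or with the out-of-order rows of WT replicate 1 missing; 9 with array weights; 3 with an adjusted p under 0.01 (CHS, F3H and FLS1); and 2 with WT replicate 1 as deposited (CHS and FLS1). Leaving out 1 library gave 3 to 9: 3 when WT replicate 1 or 2 was absent and 9 when mutant replicate 3 was. Over all tested genes, 613 were called higher and 483 lower. The number higher was 2699 with array weights, 157 with an adjusted p under 0.01, 202 with WT replicate 1 as deposited, and 165 to 781 with 1 library left out (197 without WT replicate 1, 165 without WT replicate 2, 328 without WT replicate 3, 311 without mutant replicate 1); the number lower was 916 with quantile normalization and 356 to 572 with 1 library left out. The cause of these differences was not tested. With 1 library left out the log2 ratio was 0.86 to 1.12 for CHS to C4H, 0.21 to 0.75 for FLS1 to DFR and 0.03 to 0.36 for FLS1 to F3'H, where the permutations left cannot give an adjusted p under 0.05.

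The labels do not tell whether same-numbered libraries of both genotypes share more than a number. Their deviations correlated at 0.0516, 0.172 and 0.0829 across genes, each the highest value for its library. The seed storage genes were also highest in replicate 2 of both genotypes (309 TPM in glk1 glk2 and 102 TPM in WT). Both are hints from the data and not from the design. With the replicate block, which leaves out mutant replicate 4, the call of PAL1 was lost (limma adjusted p = 0.0747). In that fit 5 members were called higher, and 234 of all tested genes were (1.23%). The anthocyanin list had 2 genes called higher there (3AT1, limma adjusted p = 0.011, and UGT75C1, 0.0272). No value of a member changed sign under any alternative, and 306 values of members stayed on their side of the threshold while 20 left it and 10 crossed into it. Read depth is unknown, which limits the regulator genes most.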
